A study of Mus musculus with 8 samples.

Results

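The core partners of the MLL complexes are 10 genes whose products join the histone methyltransferase Mll1 or its relatives. They are *Wdr5*, *Rbbp5*, *Ash2l*, *Dpy30*, *Men1*, *Psip1*, *Kdm6a*, *Ncoa6*, *Paxip1* and *Cxxc1*, and they were found by their gene symbol among the genes of the normalised table and by their Ensembl identifier among the 53801 genes of the count table. All 10 were found in both tables. The RNA came from Lgr5-GFP+ intestinal stem cells of 8 mice, 4 labelled β-cateninGOF; Mll1-/- (knockout) and 4 labelled β-cateninGOF; Mll1+/- (control), and 1 library was made from each mouse. All mice carried a Lgr5-EGFP-IRES-CreERT2 allele, which drives a tamoxifen-dependent Cre recombinase in Lgr5+ cells, and a β-catenin allele that Cre turns into a stabilised form by removal of exon 3. Mll1+/- mice had 1 floxed and 1 intact Mll1 allele before induction, and Mll1-/- mice had 2 floxed alleles. Both groups therefore shared the β-catenin mutation and the loss of at least 1 Mll1 allele, and no library without either was analysed here. Tamoxifen (50 mg/kg) was injected on 3 consecutive days at 4 to 6 weeks of age, and cells were taken 10 days after induction. Recombination in this model is mosaic between crypts, and the sort gated on GFP and not on recombination.

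Methylation of lysine 4 of histone H3 (H3K4), a mark of active promoters and enhancers, is written by enzymes of the MLL and SETD1 families. Each enzyme works only weakly alone and is held in an active form by a shared module of Wdr5, Rbbp5, Ash2l and Dpy30, known as WRAD. Other partners belong to particular complexes: menin (*Men1*) and LEDGF (*Psip1*) tether Mll1 and Mll2 to chromatin, the H3K27 demethylase Utx (*Kdm6a*), *Ncoa6* and Ptip (*Paxip1*) accompany Mll3 and Mll4, and Cfp1 (*Cxxc1*), which binds unmethylated CG dinucleotides, accompanies Setd1a and Setd1b. The comparison asks whether the RNA of these partners differed when Mll1 was lost from β-catenin-activated stem cells.

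Each library was made from 300 sorted cells and held 14468751 to 16847793 counts on genes. Expression is in CPM, that is, counts scaled to library size with TMM factors, and the members had between 97 and 3901 counts in a library. *Kmt2a*, which encodes Mll1, was at 59.5, 62.6, 78.5 and 53.5 CPM in the Mll1-/- libraries J_7075, J_7096, J_7135 and J_7136, and at 50.2, 64.9, 51.2 and 48.9 CPM in the Mll1+/- libraries J_7079, J_7100, J_7134 and J_7139. Its count over the whole gene was not lower in the libraries labelled Mll1-/- (log2 fold change 0.24, standard error 0.17, adjusted p = 0.710, edgeR), so the genotypes below are those of the labels. The counts do not separate exons, and a shortened transcript could still be counted. J_7135 stood apart from the rest, with a highest Spearman correlation over genes of 0.890 to any other library, where the other libraries reached at least 0.920. It held both *Xist* and Y-linked transcripts, while each of the other libraries held mainly one or the other, and sex is not labelled. The stem cell gene *Lgr5* (at 261 ± 19.9 CPM in Mll1-/- and 271 ± 41.0 CPM in Mll1+/- libraries, SD, n = 4 each) and the epithelial gene *Epcam* were present in all libraries. Of the listed markers of leukocytes, fibroblasts and endothelium, *Ptprc*, *Cd3e*, *Cd79a*, *Col1a1* and *Pdgfra* had at most 16 counts in any library. *Lyz2*, a gene of myeloid cells, had 12 to 74 counts, and *Pecam1*, a gene of endothelium, had 59 to 106 counts. Cells of a given type and RNA per cell cannot be told apart in these bulk libraries.

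The promoter sequence is shown for *Dpy30*, the member with the fewest exonic bases. *Dpy30* (ENSMUSG00000024067) lies on the minus strand of chromosome 17 from 74299474 to 74323944 of GRCm38. RefSeq promoter windows of GRCm38.p6, which reach from 250 bases before to 50 bases after a start, matched 7 of the 10 members with 12 windows in all, and 4 of the 12 belong to *Dpy30*. The first 220 bases of its windows at the gene's outer start (chr17:74323975-74324194) and at a start 7511 bases downstream, inside the annotated gene (chr17:74316464-74316683), read as follows on the gene's strand, with CG dinucleotides in capitals.
Dpy30 outer start: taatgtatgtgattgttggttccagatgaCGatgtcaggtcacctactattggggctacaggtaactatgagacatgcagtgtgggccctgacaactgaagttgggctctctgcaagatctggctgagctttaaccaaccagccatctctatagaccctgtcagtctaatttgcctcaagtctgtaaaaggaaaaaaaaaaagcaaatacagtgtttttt
Dpy30 inner start: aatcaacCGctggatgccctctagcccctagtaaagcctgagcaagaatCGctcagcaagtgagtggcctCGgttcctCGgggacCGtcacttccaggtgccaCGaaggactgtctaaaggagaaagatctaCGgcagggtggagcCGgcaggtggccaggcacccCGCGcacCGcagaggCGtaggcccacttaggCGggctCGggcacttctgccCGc
The outer stretch holds 1 CG and the inner stretch holds 15. Over the full 300 bases, the outer window has 1 CG, and the 3 inner windows have 30, 34 and 39, where the median of 32851 promoter windows is 7. The 3 inner windows overlap each other, so their counts are not independent. At least 30 CG dinucleotides are found in 11.7% of all windows. Of the other members, *Wdr5*, *Rbbp5*, *Kdm6a* and *Paxip1* had 22, 16, 21 and 28 in their window, *Men1* had 11, 16 and 16 in its 3 windows, and the *Ncoa6* window, 33111 bases from the outer start of that gene, had 1. The GGGCGG box, searched on both strands, was present in 7 of the 12 windows and in 35.7% of all windows. The 7 windows belong to 5 members. The 3 windows of *Men1* are among them and overlap each other, so they are not independent. The counts are summed over a gene and do not say which start was used.

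Per kilobase of exon, *Dpy30* was far above every other partner. It stood at 212 ± 28.8 CPM per kilobase (SD, n = 8), with 154 in the lowest and 237 in the highest library, and 97.9% of the 16445 genes tested had a lower mean level per kilobase. *Psip1* followed with 12.1 ± 2.51 CPM per kilobase, and the ratio of *Dpy30* to *Psip1* was between 14.4 and 27.1 in every library. The counts of *Dpy30* spread over 974 exonic bases, the fewest of the group, and share 3.59% of their 31-base words with *Gm2059*. The part of gene length in its level was not tested. Without division by length *Dpy30* was still the highest, at 206 CPM on average against 61.7 CPM for *Psip1*.

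Per kilobase of exon, the other 3 WRAD subunits had levels that could not be ordered. *Wdr5*, the scaffold that contacts the enzyme, was at 6.94 ± 3.05 CPM per kilobase, *Ash2l*, which pairs with Rbbp5 to stimulate the enzyme, at 6.31 ± 1.05, and *Rbbp5* itself at 6.15 ± 1.28 (SD, n = 8 each). *Ash2l* was above *Rbbp5* in 3 of 8 libraries and *Wdr5* was above *Rbbp5* in 5 of 8. *Dpy30*, a dimer that binds Ash2l, was above each of them in 8 of 8 libraries, with ratios of the means of 30.5 to *Wdr5*, 33.5 to *Ash2l* and 34.4 to *Rbbp5*.

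Among the partners of particular complexes, *Cxxc1* and *Psip1* were high and *Men1* was low. *Cxxc1* was at 10.5 ± 2.62 CPM per kilobase, and *Psip1* was above it in 7 of 8 libraries. *Kdm6a* was at 6.63 ± 2.56, *Ncoa6* at 5.00 ± 1.57, *Paxip1* at 3.38 ± 0.639 and *Men1* at 3.21 ± 0.782 CPM per kilobase (SD, n = 8 each). Of the neighbours in the full order, *Dpy30* and *Psip1* were the only pair whose ranges over the libraries were separate. *Paxip1* was above *Men1* in 4 of 8 libraries, *Wdr5* above *Kdm6a* in 3 and *Kdm6a* above *Ash2l* in 5. *Men1* and its partner enzyme *Kmt2a* (3.52 ± 0.598 CPM per kilobase) overlapped as well. *Cxxc1* was above its enzymes *Setd1a* and *Setd1b* in 8 of 8 libraries, with ratios of the means of 6.78 and 4.30.

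The order depends on which bases count as the gene. With the longest protein-coding transcript in place of all exonic bases, *Ash2l*, whose exons cover 8969 bases and whose longest coding transcript has 3307, rose from place 6 to place 3 of 10, at 17.1 ± 2.84 CPM per kilobase, and *Wdr5* went from place 4 to place 6. *Dpy30*, *Psip1*, *Kdm6a*, *Rbbp5*, *Ncoa6*, *Paxip1* and *Men1* kept their places, and *Cxxc1* moved from place 3 to place 4. On this scale *Wdr5* was at 8.63 ± 3.79 and *Rbbp5* at 7.14 ± 1.49 CPM per kilobase (SD, n = 8 each). *Ash2l* was therefore level with these 2 WRAD subunits only when all exonic bases were counted.

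**Figure D1:**
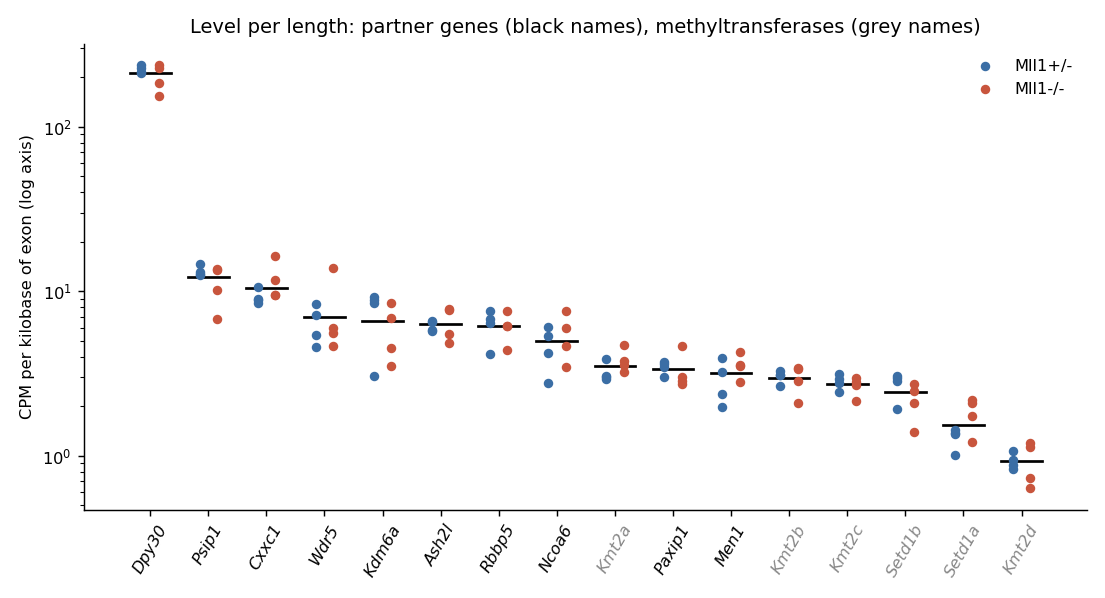
Level in CPM per kilobase of exon on a log axis for the 10 partner genes (black names) and the 6 methyltransferases of the family (grey names), ordered by their mean. Each point is 1 library (blue Mll1+/-, red Mll1-/-) and the line is the mean of 8 libraries, and *Dpy30* at 212 lies apart from all other genes, which stand between 0.926 and 12.1.

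No partner passed the test for a difference between the genotypes. At an adjusted p under 0.1 (edgeR's quasi-likelihood test, two-sided, Benjamini-Hochberg over all 16445 genes tested), 0 of the 10 members were called, where 0.0851% of all genes tested were called. At an unadjusted p under 0.05 it was also 0 of 10 members, against 9.15% of all genes. DESeq2's Wald test called 0 members at an adjusted p under 0.1, against 2.45% of all genes with an adjusted p, and 0 at an unadjusted p under 0.05, against 6.23%. limma-voom with quality weights also called 0 members, against 0.626% of all genes, and 0 at an unadjusted p under 0.05, against 10.6%. The libraries of the genotypes overlapped for all 10 members, while they did not overlap for 6.28% of the genes tested. The median log2 fold change of the members was 0.02, beside 0.01 over all genes tested, with 5 members above 0 and 5 below. The median size of the change, regardless of sign, was 0.24 on the log2 scale for the members and 0.28 for all genes.

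A failure to pass the test does not show that levels were the same, and the intervals say how large a change these libraries could have held. For 8 of the 10 members the 95% interval of the log2 fold change lay within 1 in either direction, that is, within a 2-fold change. The exceptions were *Wdr5*, whose interval reached 1.05, and *Kdm6a*, whose interval reached -1.19. Standard errors were between 0.14 for *Dpy30* and 0.38 for *Kdm6a*, and their median over all genes tested was 0.33. The adjusted p-values of the members lay between 0.660 and 0.977 (edgeR).

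**Figure D2:**
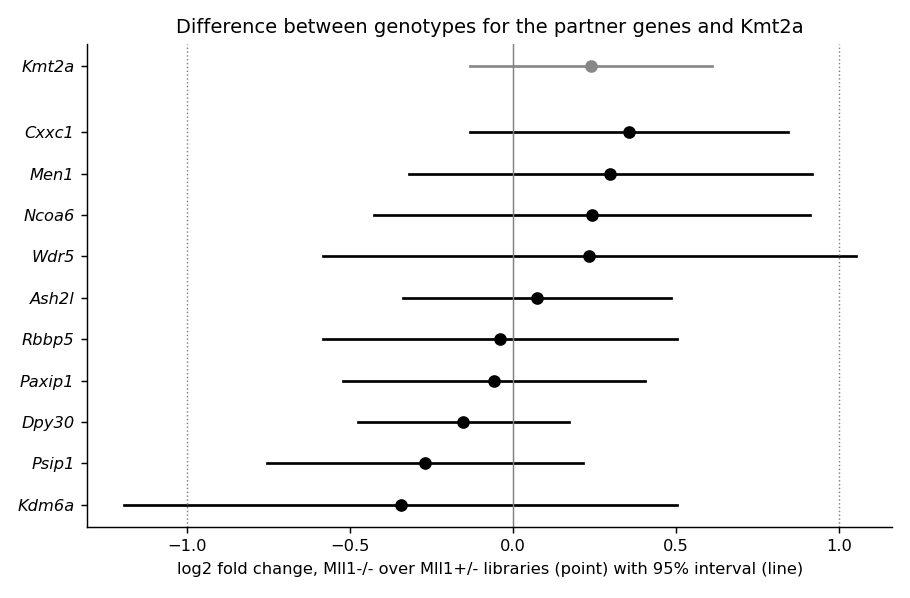
Log2 fold change of the Mll1-/- over the Mll1+/- libraries (points) with its 95% interval (lines) for the 10 partner genes and, in grey, *Kmt2a*. All intervals include 0, and those of *Wdr5* and *Kdm6a* pass the dotted lines that mark a 2-fold change.

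In the WRAD module, *Wdr5* (ENSMUSG00000026917, chromosome 2 from 27515157 to 27536535) was at 21.4, 20.0, 49.7 and 16.8 CPM in the Mll1-/- libraries J_7075, J_7096, J_7135 and J_7136. It was at 29.9, 16.5, 19.4 and 25.9 CPM in the Mll1+/- libraries J_7079, J_7100, J_7134 and J_7139. J_7135 was more than 1.5 times above any other library, and the remaining Mll1-/- libraries lay inside the Mll1+/- range. Its log2 fold change was 0.23 (adjusted p = 0.888, edgeR, standard error 0.36), and -0.24 without J_7135.

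*Rbbp5* (ENSMUSG00000026439, chromosome 1 from 132477365 to 132505659) was at 29.9, 24.0, 24.2 and 17.2 CPM in the Mll1-/- libraries in the order above and at 25.2, 29.7, 16.4 and 26.5 CPM in the Mll1+/- libraries. Its means of 23.8 ± 5.18 and 24.5 ± 5.69 CPM (SD, n = 4 each) were the closest of the group (log2 fold change -0.04, standard error 0.24). *Rbbp5* shares 11.3% of its 31-base words with *Gm11977*, so reads from these stretches can be lost or misplaced.

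*Ash2l* (ENSMUSG00000031575, chromosome 8 from 25815996 to 25847694) was at 49.6, 43.6, 70.2 and 69.0 CPM in the Mll1-/- libraries and at 51.2, 59.2, 52.0 and 58.3 CPM in the Mll1+/- libraries. The Mll1-/- libraries lay on both sides of the Mll1+/- range, 2 below and 2 above it. Their means differed by 0.07 on the log2 scale (standard error 0.18).

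*Dpy30* was at 230, 221, 179 and 150 CPM in the Mll1-/- libraries and at 209, 231, 223 and 205 CPM in the Mll1+/- libraries. The Mll1-/- libraries J_7135 and J_7136 were the lowest of the 8, and the other Mll1-/- libraries reached the top of the Mll1+/- range. With a standard error of 0.14, the smallest of the group, the log2 fold change was -0.15 (95% interval -0.48 to 0.17). It was -0.04 without J_7136, -0.25 without J_7075 and -0.27 with the *Xist* and Y-linked covariate described below.

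*Men1* (ENSMUSG00000024947, chromosome 19 from 6334979 to 6340891) was the partner with the fewest counts. It was at 14.8, 12.1, 12.3 and 9.65 CPM in the Mll1-/- libraries and at 11.2, 6.82, 13.6 and 8.20 CPM in the Mll1+/- libraries. The groups overlapped over most of their range (log2 fold change 0.30, standard error 0.28, 95% interval -0.32 to 0.92). The value was 0.16 without J_7100, 0.19 without J_7075 and 0.48 without J_7134.

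*Psip1* (ENSMUSG00000028484, chromosome 4 from 83455680 to 83486459) was at 69.3, 68.4, 34.6 and 51.4 CPM in the Mll1-/- libraries and at 64.7, 66.7, 64.1 and 74.2 CPM in the Mll1+/- libraries. The same libraries as for *Dpy30*, J_7135 and J_7136, were the lowest. On the log2 scale *Psip1* differed by -0.27 (adjusted p = 0.750, edgeR, standard error 0.22), and by -0.10 without J_7135. Of the exonic bases of *Psip1*, 9.50% overlap *Snapc3*, and 14.8% of its 31-base words occur in other genes.

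*Ncoa6*, a coactivator of nuclear receptors (ENSMUSG00000038369, chromosome 2 from 155390656 to 155473894), was at 33.6, 45.1, 74.2 and 58.6 CPM in the Mll1-/- libraries and at 51.8, 58.7, 26.9 and 41.3 CPM in the Mll1+/- libraries. J_7135 was again the highest, while the remaining libraries of both genotypes were interleaved. The fitted log2 fold change was 0.24 (standard error 0.30) with all libraries, 0.03 without J_7135, 0.06 without J_7134 and 0.40 without J_7075 or J_7100. With the *Xist* and Y-linked covariate it was 0.53 (unadjusted p = 0.0559, adjusted p = 0.515, edgeR), the smallest unadjusted p of a member in that fit.

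*Paxip1*, which also acts in the response to DNA damage (ENSMUSG00000002221, chromosome 5 from 27740080 to 27791691), was at 31, 48.0, 27.9 and 29.2 CPM in the Mll1-/- libraries and at 30.8, 35.8, 37.9 and 37.1 CPM in the Mll1+/- libraries. J_7096 lay above all other libraries, and the difference between the means was small (log2 fold change -0.06, standard error 0.21).

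*Cxxc1* (ENSMUSG00000024560, chromosome 18 from 74216131 to 74221491) had the smallest unadjusted p of the group. It was at 24.9, 30.8, 42.9 and 24.8 CPM in the Mll1-/- libraries and at 22.1, 27.9, 23.4 and 23.0 CPM in the Mll1+/- libraries. All libraries but J_7135 lay between 22.1 and 30.8 CPM. With all libraries the log2 fold change was 0.36 (standard error 0.22, edgeR, unadjusted p = 0.133, adjusted p = 0.660), without J_7135 it was 0.15, and the exact two-sided permutation test gave p = 0.143. Over the 10 members these permutation p-values lay between 0.143 and 0.857, where the smallest that the 70 assignments allow is 0.0286.

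**Figure D3:**
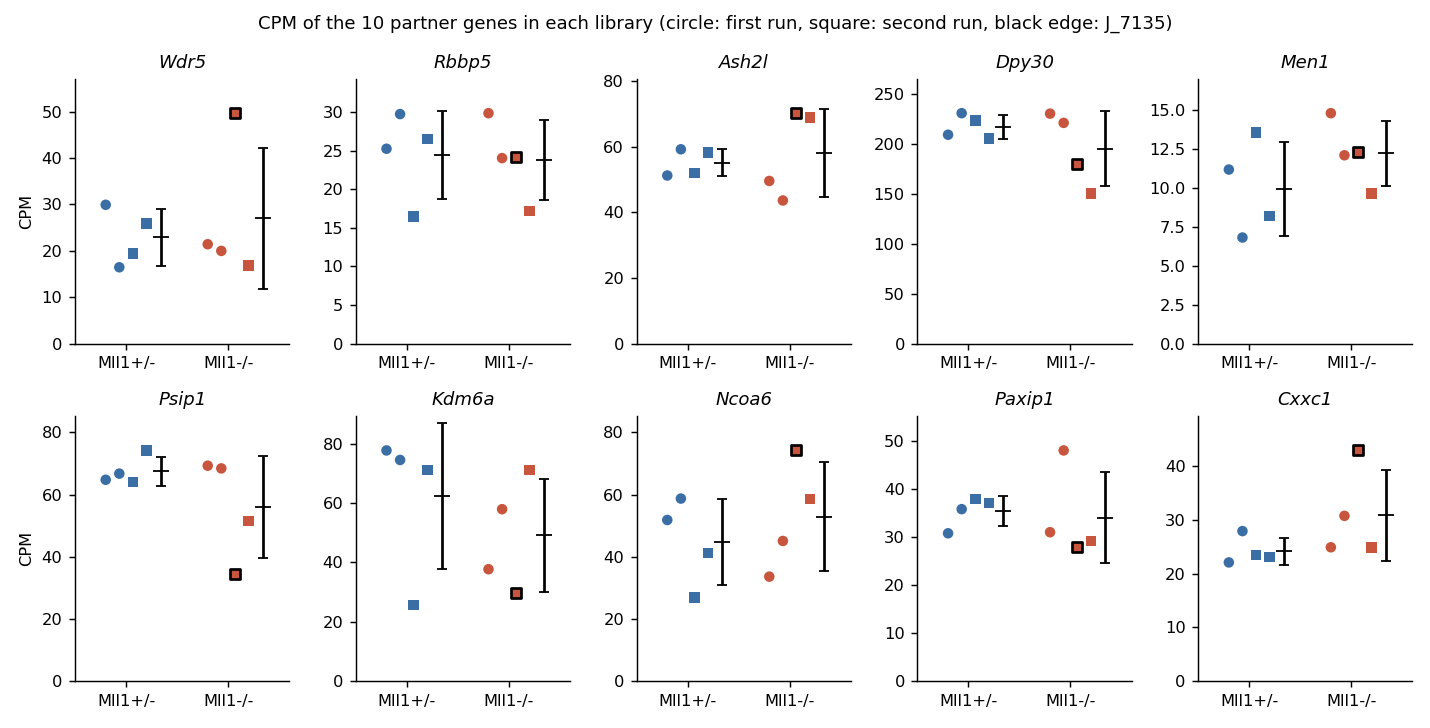
CPM of each of the 10 partner genes in every library, with Mll1+/- libraries in blue and Mll1-/- libraries in red, circles for the first and squares for the second run of library numbers, and the mean ± SD of 4 libraries in black. J_7135 (black edge) is the highest or the lowest library in 6 of the 10 panels, and the genotypes overlap in all of them.

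J_7135 was the highest library for *Wdr5*, *Ash2l*, *Ncoa6* and *Cxxc1* and the lowest for *Psip1* and *Paxip1*. These are 6 of 10 members, and over all genes tested J_7135 was at an extreme in 50.4%, compared with 17.1% to 29.8% for each of the other libraries. Leaving it out changed no call among the members. The count table's header carries library numbers that fall into 2 runs of consecutive numbers, with 2 libraries of each genotype in each, J_7075, J_7079, J_7096 and J_7100 in the first and J_7134, J_7135, J_7136 and J_7139 in the second. Neither labels nor header say what these numbers mark. The genotype difference had the same sign in both runs for 3 members, *Rbbp5* (-0.03 and -0.03 on the log2 scale), *Men1* (0.61 and 0.05) and *Cxxc1* (0.16 and 0.49). It had opposite signs for the other 7, most widely for *Ncoa6*, with -0.50 among the first and 0.99 among the second 4 libraries. With a term for the run, 0 members were called, but so were 0 of all 16445 genes tested, so this fit cannot single out the members.

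*Kdm6a* (ENSMUSG00000037369, chromosome X from 18162575 to 18279936) had a pattern of its own. It removes methyl groups from lysine 27 of histone H3, it escapes X inactivation in the mouse, and the Y chromosome carries a paralog, *Uty*. *Kdm6a* was at 37.6, 57.9, 29.5 and 71.1 CPM in the Mll1-/- libraries and at 77.7, 74.5, 25.6 and 71.1 CPM in the Mll1+/- libraries. The low libraries were found in both genotypes, J_7134 among the Mll1+/- and J_7075, J_7096 and J_7135 among the Mll1-/-.

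These 4 libraries were those with Y-linked transcripts. The summed level of *Ddx3y*, *Eif2s3y*, *Kdm5d* and *Uty* was 307, 322, 295 and 165 CPM in J_7075, J_7096, J_7134 and J_7135, and at most 0.839 CPM in the other libraries. *Xist*, the RNA that coats the inactive X chromosome, had 523, 517, 759 and 404 CPM in J_7079, J_7100, J_7136 and J_7139. In J_7075, J_7096 and J_7134 *Xist* stood at 0.649, 2.84 and 0 CPM, where 0 counts allow up to 0.241 CPM, and J_7135 held 208 CPM of *Xist* beside its Y-linked transcripts. Every library with *Xist* and without Y-linked transcripts had at least 71.1 CPM of *Kdm6a*, and every library with Y-linked transcripts had at most 57.9 CPM. Since the libraries fall into such clusters, no correlation of *Kdm6a* over them is given.

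*Uty* ran opposite to *Kdm6a*. It was at 42.3, 38.1 and 40.1 CPM in J_7075, J_7096 and J_7134, at 8.92 CPM in J_7135 and at 0.197 to 0.517 CPM in the others. The sum of *Kdm6a* and *Uty* was 77.9, 74.9, 71.3 and 71.6 CPM in J_7079, J_7100, J_7136 and J_7139, and 80.0, 95.9 and 65.7 CPM in J_7075, J_7096 and J_7134. J_7135 was the lowest with 38.4 CPM. Over all 8 libraries, the coefficient of variation was 38.6% for *Kdm6a* alone and 22.6% for the sum, and over the 7 libraries without J_7135 it was 34.1% and 12.6%. The sum was looked at after the values of both genes were seen. Of the 31-base words of *Kdm6a*, 0.825% are shared with *Uty*. Exchange of reads between the genes was not tested.

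**Figure D4:**
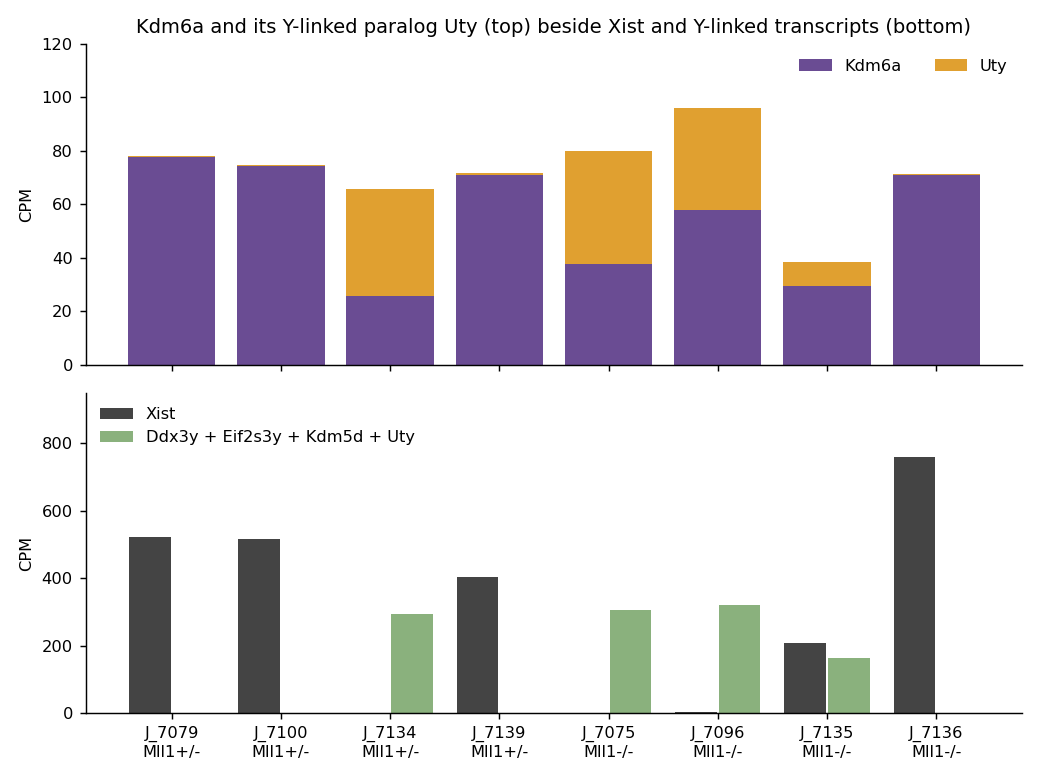
Top: CPM of *Kdm6a* (purple) and *Uty* (yellow, stacked) in each library; bottom: CPM of *Xist* (grey) and the summed Y-linked genes (green). *Kdm6a* is at most 57.9 CPM in the 4 libraries with Y-linked transcripts, the stacked sum is 65.7 to 95.9 CPM in all libraries but J_7135, and both kinds of library occur under both genotypes.

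Libraries with Y-linked transcripts were unequally spread, 3 of 4 in Mll1-/- and 1 of 4 in Mll1+/-. The *Kdm6a* difference between the genotypes (log2 fold change -0.35, standard error 0.38, adjusted p = 0.835, edgeR) was -0.70 within the first run, where both Mll1-/- libraries held Y-linked transcripts and both Mll1+/- libraries held *Xist*. Within the second run, with 1 library of each kind per genotype if J_7135 is counted by its Y-linked transcripts, it was 0.10. With the level of *Xist* above that of the Y-linked genes as a covariate, the log2 fold change was 0.08. In the fit without that covariate it was -0.60 when J_7134 was left out, -0.58 when J_7136 was and -0.17 when J_7135 was. The other X-linked genes listed as escaping inactivation did not share the whole pattern. *Eif2s3x* was at 33.8 to 39.1 CPM in J_7079, J_7100 and J_7139, and at 18.5 to 25.7 CPM in the libraries with Y-linked transcripts, but J_7136 was at 20.1 CPM. *Kdm5c* was lowest in J_7134 with 11.9 CPM and highest in J_7136 with 27.8 CPM, and *Ddx3x* was lowest in J_7135 with 251 CPM. Of the 4 genes, 0 were called, and 1, *Eif2s3x*, had an unadjusted p under 0.05 (edgeR, log2 fold change -0.60, adjusted p = 0.485). Over all genes tested, 0.0851% were called and 9.15% had an unadjusted p under 0.05.

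Beyond the members, the 33 genes of 6 related lists gave 0 calls among the 29 tested (0.0851% over all genes tested), with -0.01 as the median log2 fold change. An unadjusted p under 0.05 (edgeR) was reached by 2 of the 29, *Kdm5b* and *Ogt*, where 9.15% of all genes tested reached it. Of the 6 methyltransferases, *Kmt2a* and *Setd1a* were above 0 and *Kmt2b*, *Kmt2c*, *Kmt2d* and *Setd1b* below, from -0.31 for *Setd1b* to 0.48 for *Setd1a* on the log2 scale. The other subunits and partners, such as *Hcfc1* and *Wdr82*, had 7 of 8 genes tested and a range from -0.31 to 0.37, and *Pagr1a* had at most 1 count. The 5 H3K4 demethylases ranged from -0.85 for *Kdm1b* to 0.23 for *Kdm5c*, and *Kdm6b*, the other H3K27 demethylase, stood at 0.03. Genes that menin and Mll1 bind in other tissues gave 3 tested genes of 6, and *Meis1*, *Hoxa9* and *Hoxa10* fell below the filter on low counts.

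*Wdr5* is also part of the NSL acetyltransferase complex, and of its 7 listed partners, 1 did not overlap between the genotypes, where 6.28% of all genes tested did not. *Ogt*, an X-linked enzyme that adds N-acetylglucosamine to proteins, was at 126, 143, 234 and 201 CPM in the Mll1-/- libraries and at 266, 237, 237 and 300 CPM in the Mll1+/- libraries. J_7135 came within 3 CPM of the lowest Mll1+/- library, J_7100. Its log2 fold change of -0.56 (standard error 0.20, edgeR, unadjusted p = 0.0188, adjusted p = 0.467) missed the threshold, and within the runs *Ogt* differed by -0.91 and -0.30. limma-voom with quality weights called *Ogt*, and edgeR and DESeq2 did not.

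Several marker genes had larger fold changes than any partner, although none passed the threshold in edgeR. The authors, who used DESeq2, reported *Muc2* and *Tff3* as higher and *Defa17* and *Lyz1* as lower in the Mll1-/- cells. The DESeq2 fit made here called 2.45% of all genes with an adjusted p, against 0.0851% of genes tested in edgeR. Its calls for these markers are not given, so the edgeR result does not bear on whether DESeq2 calls them. The summed level of the 5 genes of the stem cell list was 9914 to 16692 CPM in the Mll1-/- and 21215 to 25132 CPM in the Mll1+/- libraries. Most of this sum was *Olfm4* (log2 fold change -0.77), and it also holds *Epcam*, a gene of epithelium in general. The genotypes overlapped for *Lgr5* (-0.06), *Smoc2* (0.03), *Ascl2* (-0.40) and *Epcam* (0.16). In the same order, the Paneth cell markers summed to 1033 to 2029 and 1753 to 4501 CPM. The goblet cell markers summed to 635 to 1155 and 556 to 778 CPM, with 5 genes above 0 and 1, *Spink4* (-0.54), below. Still in this order, the enteroendocrine markers summed to 0.131 to 6.72 and 7.06 to 68.1 CPM. The enterocyte markers summed to 14.7 to 24.6 and 45.5 to 74.5 CPM. Tuft cell markers summed to at most 6.72 CPM, leukocyte markers to at most 6.50 CPM and those of fibroblasts and endothelium to at most 6.83 CPM. Of these 35 markers 26 were tested and 0 were called (edgeR), with an unadjusted p under 0.05 for 13 (9.15% over all genes tested). The 7 markers *Olfm4*, *Defa17* (-1.72), *Itln1* (118 ± 24.8 and 236 ± 93.2 CPM, SD, n = 4 each), *Muc2* (1.94), *Chga* (at most 3 counts in the Mll1-/- libraries), *Chgb* (-4.98) and *Apoa1* (-1.16) did not overlap between the genotypes, as 6.28% of all genes tested did not. The part of cell type composition in the members' levels was not tested.

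The partners did not move as 1 block across the libraries. Over the 36 pairs of the 9 members other than *Kdm6a*, Pearson's r of log2 CPM over the 8 libraries had a median of -0.03 and ranged from -0.77 for *Psip1* and *Cxxc1* to 0.65 for *Dpy30* and *Psip1*. Over the 7 libraries without J_7135 the median was 0.03, *Dpy30* and *Psip1* were again the highest pair with 0.82, *Ash2l* and *Dpy30* were the lowest with -0.72, and *Psip1* and *Cxxc1* were at 0.07. Within WRAD, *Dpy30* and *Rbbp5* had an r of 0.52, and *Dpy30* and *Ash2l* one of -0.75. *Cxxc1* ran closest to *Kmt2a* of these members, with an r of 0.94 over 8 and 0.88 over 7 libraries. All such values come from the same 8 libraries and share their depth and composition. For members other than *Ncoa6* and *Kdm6a*, the genes tested with the most similar pattern were *Smg8* for *Wdr5*, *Zadh2* for *Rbbp5*, *Kat14* for *Ash2l*, *Lrrc8d* for *Dpy30*, *Tnfsf15* for *Men1*, *Rap1b* for *Psip1*, *Ccl6* for *Paxip1* and *Vps37c* for *Cxxc1*, with r between 0.946 and 0.993 over 8 libraries, picked as the highest of 16445.

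The members varied among libraries by 13.6% (*Dpy30*) to 44.0% (*Wdr5*), given as the coefficient of variation of CPM over the 8 libraries. The median was 22.6% for the members, 31.6% for all genes tested and 23.9% for the 7964 tested genes whose mean CPM lay between those of *Men1* and *Dpy30*. Counting error alone would give 1.75% to 7.52% at the members' counts, and reads without molecular identifiers make this a lower limit.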

How the data were processed

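The authors aligned Smart-seq2 reads to mm10 with GSNAP and deposited raw counts per gene (featureCounts 1.6.3, unstranded, mapping quality of at least 1, Ensembl release 92). Also deposited was a signal table of counts divided by 1 DESeq2 size factor per library (0.811 to 1.17). The gene length column is a value other than expression. The counts of 92 spike-in rows (at most 36 in a library) were left out.

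Counts were filtered with filterByExpr (at least 10 counts, 15 in total), scaled with TMM and tested with edgeR 4.0.16 (robust quasi-likelihood, genotype only, R 4.3.3). Standard errors came from the fold change and F, and 95% intervals used the moderated degrees of freedom. Alternatives used DESeq2 1.42.0, limma 3.58.1, other scalings and filters, a term for the 2 runs of library numbers, an *Xist* and Y-linked covariate and each library left out. Lengths, exon overlaps and shared 31-base words were taken from the count table and GENCODE release M21, and figures were drawn with matplotlib 3.10.9. The tests were tested on simulated data. The members and gene lists were chosen with earlier results of these data known. Named were all members, *Kmt2a*, sex-linked genes, listed genes past the threshold or without overlap, and the most similar gene to each member, of which 1 is not reported here and that of *Kdm6a* is left out because its libraries cluster. The remaining genes, such as *Kdm5b*, were named after their values were seen. Promoters were shown for *Dpy30* as the shortest member. P-values measure the spread between 4 mice per genotype.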

Additional observations from a re-analysis of the deposited data

Results flagged for a closer look

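In 16 genes, the members and the 6 methyltransferases, each group of 4 libraries was examined for a library whose gap to its nearest neighbour took up more of the group's range than Dixon's 95% critical value allows. Chance alone flags about 5% of groups, and 4 of the 32 groups were flagged. *Wdr5* was at 49.7 CPM in J_7135 and at 16.8 to 21.4 CPM in the other Mll1-/- libraries. *Kdm6a* was at 25.6 CPM in J_7134, the Mll1+/- library with Y-linked transcripts, and at 71.1 to 77.7 CPM in the other Mll1+/- libraries. *Paxip1* was at 48.0 CPM in J_7096 and at 27.9 to 31 CPM in the other Mll1-/- libraries. *Kmt2a* was at 64.9 CPM in J_7100 and at 48.9 to 51.2 CPM in the other Mll1+/- libraries.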

How the results depend on the processing

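Under the 10 other settings and the 8 fits without 1 library, 0 members were called. However, 0 genes of any kind were called with the run term, the *Xist* and Y-linked covariate, both, or most fits on 7 libraries. In those fits a count of 0 members says nothing particular about the members. Without division by length the ratio of *Dpy30* to *Men1* was 18.6 in place of 66.0. limma-voom with quality weights called 1 gene of the 6 related lists, *Ogt*. Calls among the cell type markers are given for edgeR only. limma-voom also turned the log2 fold change of *Wdr5* to -0.0848, *Ash2l* to -0.116, *Ncoa6* to -0.0698 and *Paxip1* to 0.0638. The *Xist* and Y-linked covariate turned *Kdm6a* to 0.0817, and the covariate together with the run term, chosen after seeing the data, gave 0.0755 for *Kdm6a* and 0.0163 for *Rbbp5*, the lowest unadjusted p there being 0.036 for *Dpy30*. In the fits on 7 libraries, the sign changed for *Wdr5* (-0.241 to 0.406), *Rbbp5* (-0.190 to 0.0889), *Ash2l* (-0.0315 to 0.189) and *Paxip1* (-0.270 to 0.0274). The median of the members lay between -0.04 and 0.09, *Kmt2a* between 0.12 and 0.34 and the ratio of *Dpy30* to *Men1* between 61.5 and 68.3. The cause of these changes was not tested. No paired analysis was possible because the labels give each mouse a number of its own. The limits are 4 mice per genotype, 1 library that stood apart and counts summed over a gene. Sex is also unlabelled, and libraries with Y-linked transcripts were unequally spread between the genotypes.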
